A study of Homo sapiens with 6 samples.

Results

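The cytochrome P450 family was followed in the liver cancer line HepG2 after a short hairpin RNA had been delivered by lentivirus. Its members were the 54 genes, of 23368 distinct genes in the deposited table, chosen by a symbol of the form of a numbered CYP gene, with the sterol synthesis enzyme CYP51A1 set aside. They were placed by their best-known substrates into classes of 16 xenobiotic, 14 fatty acid, 12 steroid and bile acid, and 7 vitamin enzymes, and 5 had no settled substrate. In 3 libraries the cells carried the hairpin SH3 against all variants of the long noncoding RNA CHROME (shCHROME, replicates a, b and c). In the other 3 libraries they carried a non-targeting hairpin (EV, replicates a, b and c). Both hairpins were in the pLKO vector, and the virus was packaged in HEK293T cells, an embryonic kidney line, with psPAX2 and pMD2.G. The labels name SH3 alone against CHROME, so effects of that hairpin on other transcripts cannot be told apart from effects of CHROME loss, and CHROME itself was not analysed here.

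P450 enzymes are heme-containing monooxygenases that insert an oxygen atom into drugs, fatty acids, steroids, bile acid precursors and vitamins. Those in the endoplasmic reticulum take electrons from POR, and those in mitochondria take them from ferredoxin and its reductase. Hepatocytes hold many of the drug-metabolising members, and HepG2 cells are known for low levels of them. A transcript level does not measure enzyme activity.

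Libraries held 29477352 to 33911426 recovered reads in shCHROME and 29188213 to 35429420 in EV. Of 10 hepatocyte markers all were tested, 6 fell and none rose in shCHROME, and their summed value was 1226000 to 1427000 normalized counts in shCHROME and 1520000 to 1639000 in EV. Among 5 cholangiocyte and progenitor markers, 3 of the 4 tested rose, with summed values of 15670 to 19100 in shCHROME and 12240 to 14400 in EV. At the same threshold, given below, 6.87% of all tested genes fell and 3.64% rose, and the marker lists were not tested as sets. Of 6 packaging cell markers, NEFL and NEFM were listed at 0 in each library, PAX2 had 1 read over the shCHROME libraries and 1 over the EV libraries, and INA had 0 and 2. The other packaging markers, CDH2 and LIN28B, were expressed in both groups, and CDH2 fell. The part of these marker differences in the P450 results was not tested. Whether the 3 libraries of a group are separate cultures is not in the labels, so each p-value reflects only how these libraries vary, possibly for technical reasons. The number of cells and the RNA per cell cannot be told apart in such bulk libraries.

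Among P450 genes, 11 fell and 2 rose in shCHROME cells. CYP2J2, CYP4F11, CYP4F3 and CYP4F12 of fatty acid oxidation, the vitamin D-inactivating CYP24A1, the steroid and bile acid enzymes CYP17A1, CYP27A1 and CYP39A1, the drug-metabolising CYP2D6 and CYP3A7, and CYP2W1 were lower. Aromatase (CYP19A1) and the fatty acid hydroxylase CYP4V2 were higher. Calls were made with limma at a Benjamini-Hochberg adjusted p under 0.05 over all 14598 genes that passed the filter on low values. Of the 54 members 33 passed that filter, and 20 of them were not called. Over all genes tested 10.5% were called, 6.87% as lower and 3.64% as higher. Lower genes made up 65.3% of all calls, and 42.9% when values were scaled to library totals, where 8 members were lower and 2 higher. The count of lower members was 6 without EV replicate c and 7 without shCHROME replicate c, and that of higher members was 1 without shCHROME replicate b, shCHROME replicate c, EV replicate a or EV replicate b.

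Changes were mostly modest. Of the 13 called members only CYP17A1 and CYP2J2 differed by 2-fold or more, and CYP17A1 had few reads. The median log2 fold change was -0.21 over the 33 tested members and 0.009 over all tested genes, and 22 tested members had a value below 0 and 11 a value above it. In 13 members every shCHROME library lay below every EV library, and in 3 every shCHROME library lay above, where the same held for 15% and 13% of all tested genes. Among the 16 tested members with a mean of at least 100 normalized counts 10 were called, and 12.2% of all genes of that level were. Of the 17 tested members below that level, 3 were called. By the authors' deposited table, 10 members were lower and 2 higher at an adjusted p under 0.05, among 34 members with an adjusted p, and 9.04% of all genes in that table passed. All 12 were also called here, and CYP39A1, called here, had an adjusted p of 0.0776 in the authors' deposited table. The authors' means differ from those of these libraries. CYP26A1, at 0 in each library here, had an authors' mean of 0.1031, so their means did not come from these libraries alone. Their fit may have used other or further libraries too, so their calls and those made here may not rest on like samples.

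**Figure D1:**
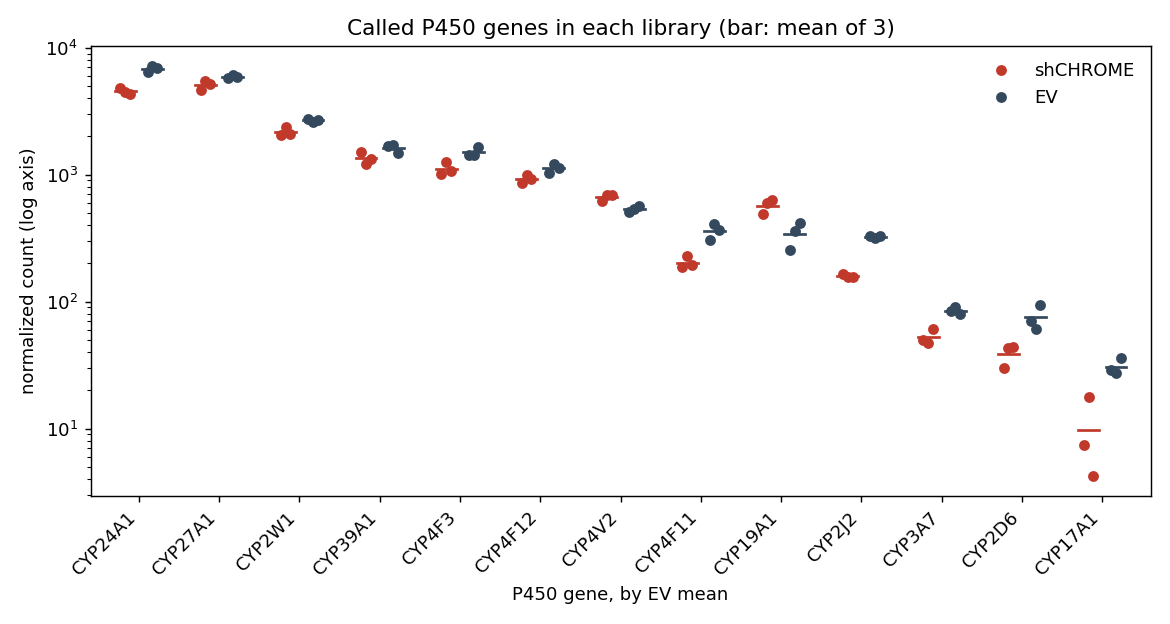
Normalized counts (log axis) of the 13 called P450 genes, ordered by EV mean, with a point for each library, shCHROME left of EV, and a bar at each mean of 3. In CYP2J2 the shCHROME libraries sit between 155.1 and 163.5 and the EV libraries between 318.1 and 330.6, and only in CYP39A1 do the groups overlap.

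**Figure D2:**
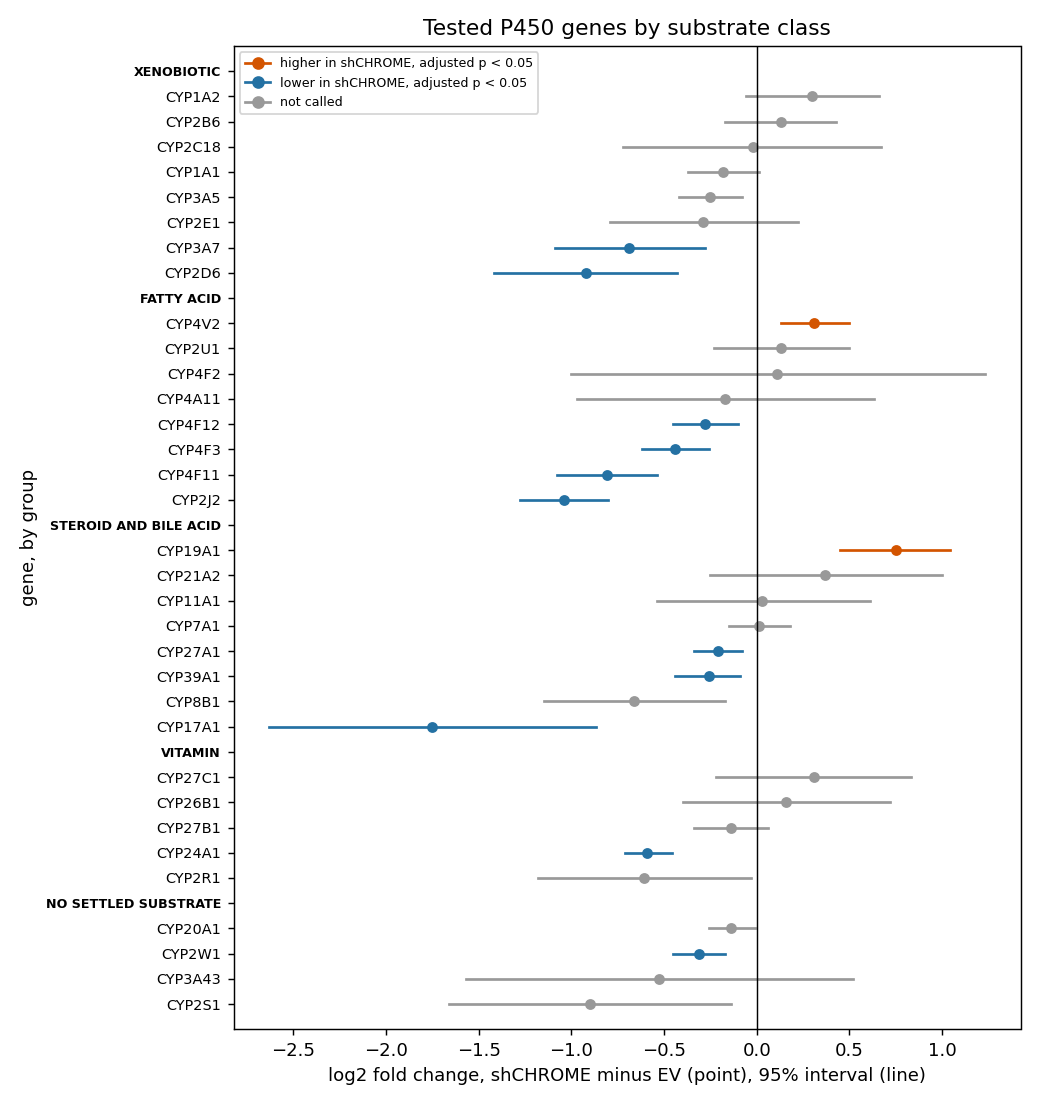
Log2 fold change (shCHROME minus EV) with its 95% interval for the 33 tested P450 genes, by substrate class and coloured by call. Called genes with values below 0 appear in each class, from -0.21 for CYP27A1 to -1.75 for CYP17A1.

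The fatty acid class held 4 of the lower members and 1 of the higher among 8 tested, and all 5 of its tested members with a mean of at least 100 normalized counts were called. CYP2J2 on chromosome 1, an epoxygenase that turns arachidonic acid into epoxyeicosatrienoic acids, had 163.5, 155.1 and 155.2 normalized counts in shCHROME replicates a, b and c, against 326.7, 318.1 and 330.6 in EV replicates a, b and c. The groups lay far apart, and the libraries within each were close together. CYP2J2 fell 2.05-fold, a log2 fold change of -1.04 (SE 0.115, limma adjusted p = 1.07e-05). That call held in all 14 alternatives, with log2 fold changes between -1.06 and -0.99.

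CYP4F11, which adds a hydroxyl group to the end of long-chain fatty acids and of vitamin K, had 185.9, 227.5 and 195.6 normalized counts in shCHROME, against 303.3, 405.9 and 367.4 in EV. Every shCHROME library was below every EV library. It fell 1.76-fold (log2 fold change -0.81, SE 0.128, limma adjusted p = 0.000456). CYP4F3, an enzyme that inactivates leukotriene B4, had 1012, 1263 and 1066 normalized counts in shCHROME, against 1432, 1440 and 1640 in EV. It fell 1.35-fold without overlap of the groups (limma adjusted p = 0.00274). CYP4F12, a relative that also hydroxylates arachidonic acid, had 859.3, 987.4 and 932.2 normalized counts in shCHROME, against 1025, 1215 and 1129 in EV. The fall of CYP4F12 was 1.21-fold (limma adjusted p = 0.0372). This call was lost with library totals as the scaling and without shCHROME replicate a, shCHROME replicate c, EV replicate b or EV replicate c, with adjusted p between 0.0222 and 0.166 over its 14 alternatives.

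These 3 genes lie in a row of CYP4F genes on chromosome 19. In the RefSeq order the row runs CYP4F22, CYP4F8, CYP4F3 and CYP4F12 with no other protein-coding gene between them, and then, past 5 others, CYP4F2 and CYP4F11. The other genes of the row had too few reads to show a difference of this size. CYP4F2, a hydroxylase of vitamins K and E, had 38 reads over the shCHROME libraries and 41 over the EV libraries, with a log2 fold change of 0.11 and a wide 95% interval of -1 to 1.23. CYP4F8 had 1 read over each group, and CYP4F22 had 1 over shCHROME and 0 over EV. Reads of such relatives can be confused: of all 50-base words in the annotated transcripts of each gene, 0.786% of those of CYP4F11, 1.97% of those of CYP4F12 and 8.8% of those of CYP4F3 also occurred in another gene. For CYP4F3 most of these were in CYP4F2.

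CYP4F3 and CYP4F11 both fell, and their promoter windows are shown. CYP4F12, which also fell, has no promoter window in the source used. Also shown is that of CYP2J2, the member with the largest fold among called members of at least 100 normalized counts. The window of CYP4V2, which moved the other way, is shown too. Each window runs from 250 bases before to 50 bases after an annotated start, 5′ to 3′ on the gene's strand, from RefSeq on GRCh38.p14. CYP4F3 is at chr19:15641062-15641361 on the plus strand. CYP4F11 has 2 starts, and the window that resembles CYP4F3 is at chr19:15934480-15934779 on the minus strand. CYP2J2 is at chr1:59926724-59927023 on the minus strand, and CYP4V2 at chr4:186191317-186191616 on the plus strand. Capitals mark AGGTCA, the half-site of many nuclear receptors, GCGTG, the core that the AHR dimer binds, and TGTTTAC, a forkhead-type word, searched on both strands. The last of these was chosen after the windows were read. TATAAA was searched too and is in none of the 4 windows.
CYP4F3: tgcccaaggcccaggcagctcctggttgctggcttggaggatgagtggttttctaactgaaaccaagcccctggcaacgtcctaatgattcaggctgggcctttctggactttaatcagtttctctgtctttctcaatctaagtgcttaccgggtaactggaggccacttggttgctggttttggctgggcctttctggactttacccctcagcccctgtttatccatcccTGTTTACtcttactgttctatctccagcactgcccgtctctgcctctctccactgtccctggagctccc
CYP4F11: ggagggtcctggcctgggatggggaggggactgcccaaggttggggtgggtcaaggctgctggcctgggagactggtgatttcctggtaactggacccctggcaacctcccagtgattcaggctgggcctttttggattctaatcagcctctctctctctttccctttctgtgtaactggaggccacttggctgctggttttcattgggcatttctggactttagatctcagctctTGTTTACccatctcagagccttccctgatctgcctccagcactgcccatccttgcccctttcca
CYP2J2: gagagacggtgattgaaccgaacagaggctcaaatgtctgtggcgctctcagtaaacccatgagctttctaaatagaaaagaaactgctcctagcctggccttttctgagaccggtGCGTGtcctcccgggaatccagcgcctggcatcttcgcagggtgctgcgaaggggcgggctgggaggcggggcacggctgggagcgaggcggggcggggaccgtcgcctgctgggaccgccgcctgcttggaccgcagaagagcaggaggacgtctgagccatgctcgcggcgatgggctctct
CYP4V2: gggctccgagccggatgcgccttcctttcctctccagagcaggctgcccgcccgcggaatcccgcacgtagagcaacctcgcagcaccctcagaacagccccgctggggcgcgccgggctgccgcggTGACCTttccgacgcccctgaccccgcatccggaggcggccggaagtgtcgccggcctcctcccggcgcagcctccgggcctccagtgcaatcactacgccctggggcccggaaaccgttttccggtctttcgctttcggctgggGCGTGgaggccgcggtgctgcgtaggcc

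The CYP4F3 and CYP4F11 windows share a run of 19 bases, tgattcaggctgggccttt, and 21 distinct words of 12 bases. The window of the other CYP4F11 start, at chr19:15934818-15935117 on the minus strand, shares a run of only 8 bases and 0 such words with CYP4F3, and it holds none of the searched words. The CYP4F3 window and the CYP4F11 window shown both hold TGTTTAC, from base -19 relative to the start in CYP4F3 and from base -14 in CYP4F11, a word present in 3.42% of the 35116 promoter windows in the table. Of 51 windows of members 4 hold it, the others being of CYP3A43, which was not called, and CYP2C8, which was not tested. Whether this word bears on the falls was not tested. CYP2J2 has GCGTG from base -134, a word in 36.5% of windows. CYP4V2 has AGGTCA in reverse from base -123, a word in 13.8% of windows, and GCGTG after its start. TATAAA is in 11.5% of windows. These matches are letters only and show no binding.

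CYP4V2 on chromosome 4, a hydroxylase of medium-chain fatty acids whose loss causes a retinal dystrophy, was the only fatty acid enzyme that rose. It had 624.9, 687.5 and 690.9 normalized counts in shCHROME, against 508.4, 535.7 and 567.5 in EV. The rise was 1.24-fold (limma adjusted p = 0.0267), and it was lost without shCHROME replicate b, shCHROME replicate c, EV replicate a or EV replicate b (adjusted p 0.0139 to 0.113 over 14 alternatives). CYP2U1, a hydroxylase of long-chain fatty acids, showed a log2 fold change of 0.13 (95% interval -0.23 to 0.5). CYP4A11, which acts on lauric and arachidonic acid, had 43 reads over shCHROME and 53 over EV and a log2 fold change of -0.17 (-0.97 to 0.63), and 36.4% of its 50-base words are shared with CYP4A22. The other 6 members of the class did not pass the filter, with at most 21 reads over the 6 libraries.

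The steroid and bile acid class moved in both directions, with 3 lower, 1 higher and 4 uncalled among 8 tested. CYP19A1 on chromosome 15, the aromatase that makes estrogens from androgens, had 487.6, 592.4 and 627.1 normalized counts in shCHROME, against 256.4, 358.3 and 415.2 in EV. The lowest shCHROME library stood above the highest EV library, although the EV values were spread out. It rose 1.68-fold (log2 fold change 0.75, SE 0.142, limma adjusted p = 0.00214), a call that held in all 14 alternatives. The gene has 7 starts in the RefSeq table, used in different tissues, and a count per gene does not tell which was used. CYP17A1 on chromosome 10, which makes androgen precursors, was near the floor of detection, with 7.472, 17.58 and 4.252 normalized counts in shCHROME, against 28.99, 27.42 and 35.85 in EV. These rest on 29 reads over shCHROME and 92 over EV. Its log2 fold change was -1.75 (SE 0.419, limma adjusted p = 0.0114), and the call was lost without shCHROME replicate c or EV replicate c (adjusted p 0.00303 to 0.0595 over 13 alternatives). Of its 50-base words 31% are shared with the overlapping gene WBP1L, which the table lists as C10orf26 and which averaged 1871 normalized counts in shCHROME and 1894 in EV.

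Of the bile acid enzymes CYP27A1 and CYP39A1 fell, and CYP7A1 and CYP8B1 did not pass the test. CYP27A1 on chromosome 2, the mitochondrial sterol hydroxylase of the alternative pathway and the most abundant transcript per kb of the 52 members with an exon length, had 4651, 5476 and 5159 normalized counts in shCHROME, against 5745, 6040 and 5881 in EV. It was 1.16-fold lower (limma adjusted p = 0.0362). CYP39A1 on chromosome 6, an oxysterol hydroxylase, had 1515, 1206 and 1332 normalized counts in shCHROME, against 1668, 1697 and 1491 in EV, so that shCHROME replicate a overlapped EV. It was 1.2-fold lower (limma adjusted p = 0.048). Both calls were marginal, each lost in 7 of 14 alternatives, with adjusted p between 0.0124 and 0.122 for CYP27A1 and between 0.00533 and 0.172 for CYP39A1. In both genes, scaling to library totals, the replicate block and leaving out shCHROME replicate c, EV replicate a or EV replicate b ended the call. CYP27A1 also lost it without shCHROME replicate a or EV replicate c, and CYP39A1 without shCHROME replicate b or with no filter beyond 1 read.

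CYP7A1, the rate-limiting enzyme of the classical bile acid pathway, had 2368, 2169 and 2679 normalized counts in shCHROME, against 2157, 2506 and 2484 in EV. The groups overlapped and the log2 fold change was 0.01 (95% interval -0.15 to 0.18, limma adjusted p = 0.957). CYP8B1, which sets the share of cholic acid, had 42.03, 76.51 and 69.09 normalized counts in shCHROME, against 116, 73.13 and 105.5 in EV. Its log2 fold change of -0.66 (-1.15 to -0.17) did not pass the test (limma adjusted p = 0.0803). The side-chain cleavage enzyme CYP11A1, which starts steroid synthesis, had a log2 fold change of 0.03 (-0.54 to 0.61), and the adrenal hydroxylase CYP21A2 one of 0.37 (-0.25 to 1). CYP11B1, CYP11B2 and CYP7B1 were listed at 0 in each library, and CYP46A1, the cholesterol hydroxylase of the brain, had 2 reads over each group.

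In the vitamin class 1 of 5 tested members was called. CYP24A1 on chromosome 20, the mitochondrial enzyme that inactivates vitamin D, had 4844, 4469 and 4337 normalized counts in shCHROME, against 6477, 7123 and 6877 in EV. No shCHROME library came near the EV range. It fell 1.5-fold (log2 fold change -0.59, SE 0.06, limma adjusted p = 5.13e-06), with log2 fold changes of -0.63 to -0.54 over 14 alternatives, all of them called. The other tested vitamin D enzymes placed in this class, CYP27B1 and CYP2R1, did not pass the test. CYP27B1, which makes the active hormone, had 371.7, 387.7 and 383.7 normalized counts in shCHROME, against 446, 409.5 and 405.2 in EV. Its groups did not overlap, but the log2 fold change was only -0.14 (95% interval -0.34 to 0.06, limma adjusted p = 0.408). CYP2R1, the liver hydroxylase that precedes it, averaged 39.9 ± 14.8 normalized counts in shCHROME and 58.66 ± 9.99 in EV (SD, n = 3 each, limma adjusted p = 0.183). The vitamin D receptor VDR, on which induction of CYP24A1 depends, was low in both groups, at 10.32 ± 2.52 normalized counts in shCHROME and 10.49 ± 5.75 in EV (SD, n = 3 each).

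Among the enzymes of vitamin A, CYP26B1, which degrades retinoic acid, had 78.46, 38.25 and 39.33 normalized counts in shCHROME, against 47.94, 39.31 and 44.81 in EV. Only shCHROME replicate a was high, and the log2 fold change was 0.16 (-0.4 to 0.72). CYP27C1, a retinol desaturase, had a log2 fold change of 0.31 (-0.22 to 0.83). CYP26A1, which retinoic acid strongly induces in many cells, was listed at 0 in each library, and CYP26C1 had 6 reads over each group.

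In the xenobiotic class 2 of 8 tested members were lower, both with fewer than 100 normalized counts, and none was higher. CYP2D6 on chromosome 22, which metabolises many antidepressants and opioids, had 29.89, 43.42 and 43.58 normalized counts in shCHROME, against 70.24, 60.33 and 94.59 in EV. It fell 1.9-fold (log2 fold change -0.92, SE 0.235, limma adjusted p = 0.0166), a call lost without EV replicate c (adjusted p 0.0129 to 0.106 over 14 alternatives). Its neighbouring pseudogene copy, listed as CYP2D7P1, had 95 reads over shCHROME and 96 over EV. Shared 50-base words were not counted for CYP2D6, so how far reads of these copies can be confused was not measured. CYP3A7 on chromosome 7, the main CYP3A enzyme of fetal liver, had 49.5, 47.56 and 60.59 normalized counts in shCHROME, against 83.62, 91.41 and 79.66 in EV. The groups were apart and the fall was 1.61-fold (limma adjusted p = 0.028). That call was lost in 7 of 14 alternatives, namely without the filter, with the replicate block and without each library other than shCHROME replicate c (adjusted p 0.0281 to 0.11). Of its 50-base words, 38.6% also belong to the readthrough transcript CYP3A7-CYP3A51P, and a readthrough listed as CYP3A7-CYP3AP1 had 15 reads over shCHROME and 37 over EV.

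The remaining drug enzymes did not pass the test. CYP3A5 had 736.9, 875.7 and 838.7 normalized counts in shCHROME, against 1005, 969.8 and 930 in EV. All its shCHROME values were lower, with a log2 fold change of -0.25 (95% interval -0.42 to -0.08) just outside the threshold (limma adjusted p = 0.0619). CYP3A4, the leading drug-metabolising enzyme of adult liver, had only 32 reads over shCHROME and 33 over EV and did not pass the filter. CYP1A1, which AHR ligands induce, had 601.5, 543.8 and 510.2 normalized counts in shCHROME, against 658.9, 620.7 and 589.5 in EV, with shCHROME replicate a inside the EV range. Its log2 fold change was -0.18 (-0.37 to 0.01). Its neighbour CYP1A2, which oxidises caffeine, had 99.01, 111.7 and 103.1 normalized counts in shCHROME, against 74.7, 98.72 and 82.64 in EV. All its shCHROME values were higher, and the log2 fold change of 0.3 (-0.06 to 0.66) did not pass the test. CYP2B6, the main target of the receptor CAR, had 0.13 (-0.17 to 0.43), CYP2C18 had -0.02 (-0.72 to 0.67) and the ethanol-oxidising CYP2E1 had -0.29 (-0.79 to 0.22) as log2 fold changes. Among the other members that did not pass the filter, CYP2C8, which metabolises paclitaxel, had 1 read over shCHROME and 10 over EV, CYP2C19 had 4 over shCHROME and 6 over EV, and CYP1B1 had 4 over shCHROME and 7 over EV.

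Of the members with no settled substrate, CYP2W1 on chromosome 7, known from fetal colon and from tumours, had 2046, 2375 and 2076 normalized counts in shCHROME, against 2755, 2596 and 2692 in EV. It fell 1.24-fold without overlap (limma adjusted p = 0.00588), a call that held in all 14 alternatives. CYP20A1, an orphan enzyme, had 2143, 2107 and 2146 normalized counts in shCHROME, against 2336, 2411 and 2295 in EV. Its groups did not overlap either, but the log2 fold change of -0.14 (95% interval -0.26 to -0.01) did not pass (limma adjusted p = 0.16). CYP2S1, an enzyme of epithelia, had 11.21, 35.15 and 17.01 normalized counts in shCHROME, against 45.71, 27.42 and 37.84 in EV, so that shCHROME replicate b lay within the EV range. It had a log2 fold change of -0.9 (limma adjusted p = 0.126) and was called without shCHROME replicate b (adjusted p 0.0271 to 0.344 over 14 alternatives). CYP3A43 had -0.53 (-1.57 to 0.52) on the log2 scale, and CYP2A7 had 0 reads over shCHROME and 1 over EV.

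Per kb of annotated exon, a rough scale for levels of different genes, the members were led by enzymes outside drug metabolism. Exon lengths from GENCODE were found for 52 of the 54 members, without CYP2D6 and CYP21A2. Each length joins all annotated exons of a gene, used in these cells or not, and the annotation behind the counts is not known. The order depends on these lengths. Before division CYP24A1 averaged 5688 normalized counts over all libraries and CYP27A1 5492, and CYP3A5 averaged 892.6 and CYP1A1 587.4. CYP27A1 averaged 1708 normalized counts per kb in shCHROME and 1974 in EV, and CYP24A1 averaged 1146 in shCHROME and 1718 in EV. CYP2W1, CYP7A1, CYP20A1 and CYP39A1 came next in EV. CYP2W1 averaged 781 normalized counts per kb in shCHROME and 966.8 in EV, and CYP7A1 averaged 815.4 in shCHROME and 807.6 in EV, so that their order was exchanged between the groups. The highest drug enzymes on this scale were CYP1A1, at 160.7 per kb in shCHROME and 181.4 in EV, and CYP3A5, at 120.9 in shCHROME and 143.3 in EV. CYP2J2 had rank 15 of 52 in shCHROME and rank 12 in EV, and CYP19A1 rank 13 in shCHROME and rank 16 in EV.

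**Figure D3:**
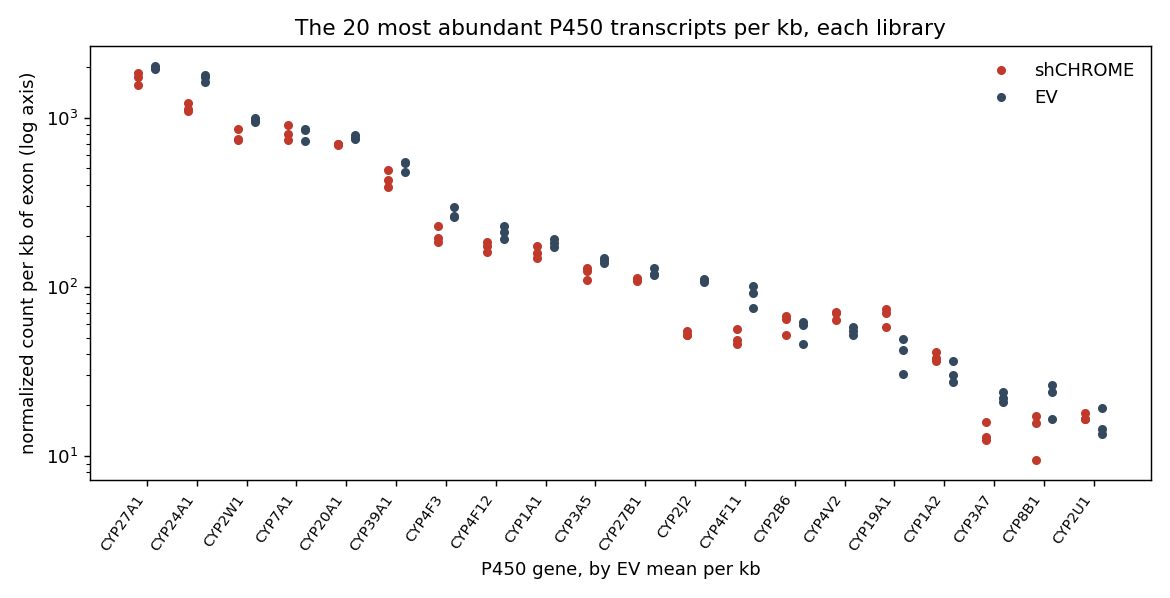
Normalized counts per kb of exon (log axis) of the 20 most abundant of the 52 members with an exon length (CYP51A1 is no member), ordered by EV mean, with a point for each library, shCHROME left of EV. CYP27A1 and CYP24A1 lead in both groups, and CYP2J2 averages 52.82 per kb in shCHROME and 108.7 in EV.

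Genes that serve the P450 enzymes were read from lists of textbook members. None of the 9 tested electron donors and membrane partners was called, where 10.5% of all tested genes were. POR averaged 20850 ± 500 normalized counts in shCHROME and 21680 ± 665 in EV (SD, n = 3 each, limma adjusted p = 0.578). The mitochondrial ferredoxin FDX1 showed a log2 fold change of 0.19 (95% interval 0.03 to 0.34, limma adjusted p = 0.116), with all shCHROME libraries above EV. PGRMC1, a heme-binding P450 partner, had -0.12 (-0.25 to 0), and CYB5B, a mitochondrial cytochrome b5, had -0.02 (-0.14 to 0.11).

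Some transcripts of heme synthesis and breakdown were called, and neither list was tested as a set. Of 8 genes of heme synthesis 2 fell and 1 rose, where 6.87% of all tested genes fell and 3.64% rose. ALAD, which joins aminolevulinic acid into porphobilinogen, averaged 1330 ± 103 normalized counts in shCHROME and 1838 ± 146 in EV (SD, n = 3 each), a 1.38-fold fall (limma adjusted p = 0.000653). CPOX, a later mitochondrial step, fell 1.21-fold (limma adjusted p = 0.022), a call lost in 6 of 14 alternatives (adjusted p 0.011 to 0.0824), namely with library totals, with the replicate block and without shCHROME replicate c or any EV library. UROD, which acts just before CPOX, rose 1.22-fold (limma adjusted p = 0.00669). The rate-limiting ALAS1 showed a log2 fold change of -0.16 (95% interval -0.33 to 0). FECH, also uncalled, had -0.33 (-0.56 to -0.1, limma adjusted p = 0.0648). BLVRB, an uncalled gene of heme breakdown, had -0.25 (-0.49 to -0.01, limma adjusted p = 0.19). In ALAS1, FECH and BLVRB all shCHROME libraries lay below EV, and in the other uncalled genes of both lists the groups overlapped. Among 4 genes of heme breakdown HMOX1, the inducible heme oxygenase, averaged 389.5 ± 30 normalized counts in shCHROME and 574.4 ± 56.2 in EV (SD, n = 3 each), a 1.47-fold fall (limma adjusted p = 0.00138), and the constitutive HMOX2 had 0.02 (-0.11 to 0.14) on the log2 scale.

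Of 23 tested regulators of P450 transcription, 2 fell and 2 rose, where 6.87% of all tested genes fell and 3.64% rose. The list was not tested as a set, and the rise of NR5A2 rests on few reads. RXRA, the shared partner of PXR, CAR, FXR, LXR, PPAR and the vitamin D receptor, averaged 4243 ± 244 normalized counts in shCHROME and 5660 ± 179 in EV (SD, n = 3 each), a fall of 1.34-fold (limma adjusted p = 0.000158). PPARA, which drives fatty acid hydroxylases of the CYP4A subfamily, fell 1.23-fold (limma adjusted p = 0.00234). ONECUT1, a liver-enriched factor, rose 1.48-fold (limma adjusted p = 0.0228), a call lost without shCHROME replicate b, shCHROME replicate c, EV replicate a or EV replicate b (adjusted p 0.00582 to 0.136 over 14 alternatives). NR5A2, an orphan receptor known to act on CYP7A1, CYP8B1 and CYP19A1, had 43 reads over shCHROME and 9 over EV, with none in EV replicate b. Its log2 fold change of 2.36 (SE 0.659, limma adjusted p = 0.0269) became 3.6 with a pseudocount of 0.1 and 1.58 without EV replicate b. The call was lost without shCHROME replicate b, shCHROME replicate c or EV replicate b (adjusted p 0.00784 to 0.14 over 12 alternatives). DESeq2 and the stricter alternative filter on low values gave no adjusted p for NR5A2. Its normalized counts were 13.08, 11.37 and 19.13 in shCHROME, against 2.23, 0 and 6.97 in EV. NR5A2 thus passed the main filter through the group in which it was higher, and its call has to be read with that limit.

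The receptors that sense drugs and bile acids did not pass the test. AHR showed a log2 fold change of -0.08 (95% interval -0.23 to 0.07), PXR (NR1I2) of -0.18 (-0.42 to 0.06), CAR (NR1I3) of 0.26 (-0.06 to 0.58) and FXR (NR1H4) of -0.1 (-0.24 to 0.03). HNF4A, a master regulator of hepatocyte genes, had -0.03 (-0.16 to 0.1). CEBPA had -0.18 (-0.3 to -0.05, limma adjusted p = 0.0684) and NR1H3 had -0.22 (-0.4 to -0.04, limma adjusted p = 0.125). In these uncalled genes all shCHROME libraries lay below EV, and in FOXA2, at 0.09 (-0.04 to 0.22), all lay above. AHRR and RARG did not pass the filter. Among related enzymes with other functions, microsomal epoxide hydrolase (EPHX1), which opens epoxides made by P450 enzymes, averaged 918.7 ± 141 normalized counts in shCHROME and 1323 ± 135 in EV (SD, n = 3 each), a 1.45-fold fall (limma adjusted p = 0.00224). The soluble hydrolase EPHX2, which degrades the products of CYP2J2, had a log2 fold change of -0.14 (-0.38 to 0.09). The prostanoid synthases PTGIS and TBXAS1, which are P450 proteins by structure, had log2 fold changes of -0.09 (-0.47 to 0.29) and -0.13 (-0.93 to 0.67).

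**Figure D4:**
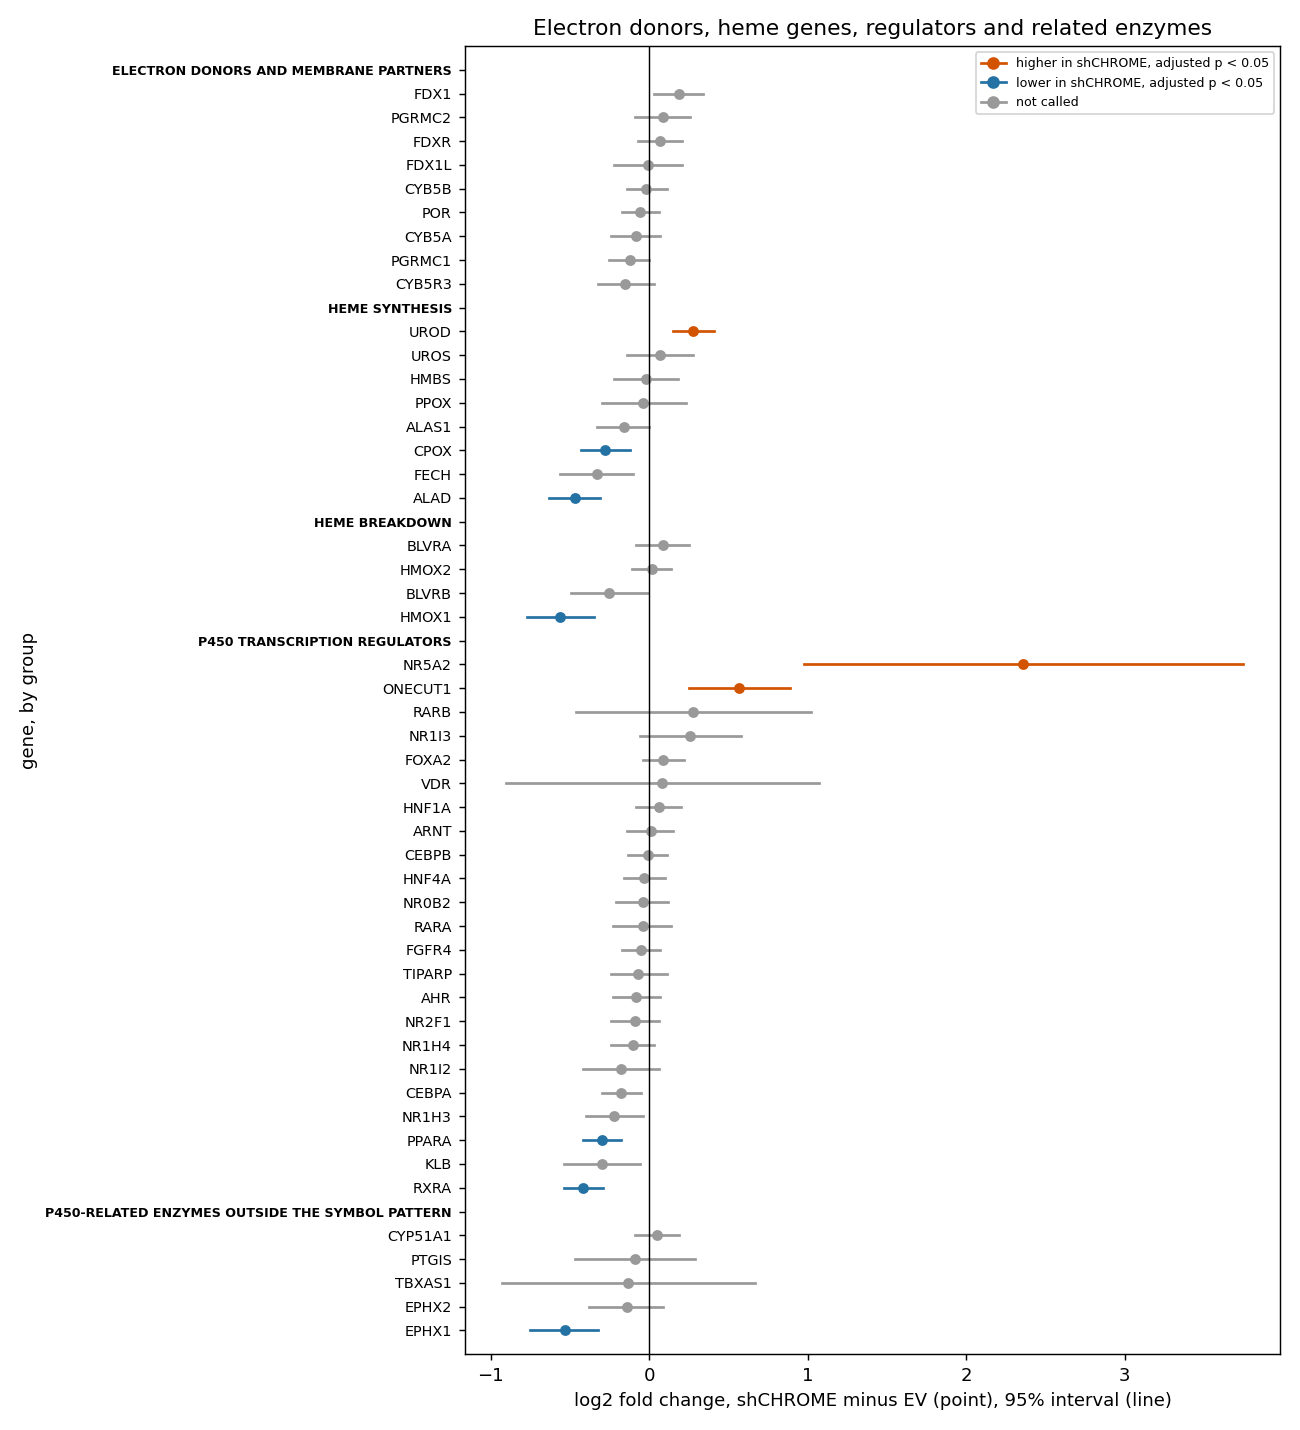
Log2 fold change (shCHROME minus EV) with its 95% interval for the tested genes of 5 lists that serve or resemble P450 enzymes, coloured by call. The 9 electron donors and partners are all uncalled, between -0.15 for CYB5R3 and 0.19 for FDX1, and 9 genes of the other lists are called.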

How the data were processed

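The authors deposited a table with a normalized signal per gene and library, which is a read count divided by a size factor, together with their own mean of all libraries, a log2 fold change, and a raw and an adjusted p-value. Reads came from a TruSeq RNA kit sequenced in pairs, per the labels' protocols, and STAR 2.5, featureCounts 1.5.2, DESeq2 (given as 3.4) and hg19 are named, per the submitters' processing notes. Neither strand use nor the annotation is given in the sources used here. Overlapping and antisense genes may therefore share reads. Of 24656 rows, 1288 repeats were removed. Whole reads were recovered from the smallest step of each library, within 0.01 reads for 100% of values. Limma 3.58.1 with a trend was fitted to log2(value + 1) of all 14598 genes kept by filterByExpr of edgeR 4.0.16, with group as the only term, and folds are powers of that value, which understates changes of low genes. Within groups, libraries differed beyond counting noise (chi-square per degree of freedom 5.69 to 17.01). Alternatives were edgeR quasi-likelihood, DESeq2 1.42.0, other scalings, filters and pseudocounts, a block for the replicate letter, and omission of single libraries. The fit was tested on simulated data first. Members, classes and lists were chosen with earlier results of these data known. Named were all called members with every library, the other tested members with their values, and called or the most abundant genes of each list, and further genes were added after their values were seen. Shared 50-base words were counted on both strands of GENCODE 29 transcripts, and promoters were those of RefSeq for 38 of the 54 members. The values of 1 member that did not pass the filter are not reported here.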

Additional observations from a re-analysis of the deposited data

How the results depend on the processing

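Of the 13 called P450 genes, 6 kept their call in every alternative run for them, 7 lost it in at least 1 and none changed direction. EdgeR and DESeq2 on the recovered reads each called all 13. With library totals as the scaling, where the median log2 fold change of all genes was 0.058 in place of 0.009, 8 members were lower and 2 higher. With the replicate block 8 were lower and 2 higher. Same-letter libraries had correlations of deviations of -0.05, -0.09 and 0.04, and libraries of unlike letter had -0.08 to 0.13. These values show no pairing by letter, but they cannot tell whether a letter marks a shared culture or day. Leaving out each library gave 6 to 11 lower and 1 to 2 higher members, and 1 to 3 higher genes of the pathway lists, with 1 without shCHROME replicate b, shCHROME replicate c or EV replicate b. Uncalled genes changed sign, with adjusted p of at least 0.51 in each case: CYP2C18 was 0.02 on the log2 scale with library totals and -0.47 to 0.21 with 1 library left out, and CYP4F2 was -0.11 with edgeR and -0.59 to 0.59 with 1 left out. With 1 library left out CYP4A11 was between -0.5 and 0.12, CYP11A1 between -0.16 and 0.22, CYP7A1 between -0.07 and 0.08 and CYP26B1 between -0.17 and 0.34. The causes were not tested. CYP3A5, CYP8B1 and CYP2S1 were called only with 1 library left out. The filter on low values was that of all 6 libraries when a library was left out, and counts of few reads limit CYP17A1, CYP4F2 and NR5A2.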
